A study of Mus musculus with 8 samples.

Results

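The 9 genes followed here are known as homeostatic microglia genes: Tmem119, P2ry12, Sparc, Sall1, Olfml3, Siglech, Gpr34, Slc2a5 and Crybb1. They were taken by name, and all 9 were present among the 30406 genes that the 8 single-cell libraries share. The libraries held leukocytes from adult male C57BL/6 mice that carried CD45 but were not reached by a CD45 antibody given into the blood shortly before perfusion. The paper defines such cells as tissue-resident leukocytes. Brain parenchyma was measured in 1 control library, in 2 libraries at 24 h and in 1 library at 72 h after a temporary occlusion of the middle cerebral artery, an experimental stroke. Pia and dura, the inner and outer meninges, each gave 1 control library and 1 library at 24 h. The paper's methods name naive animals as the controls of the single-cell data, whereas its figure captions call these controls sham. No other allele or agent was used in any group. Mice were pooled to n = 5 per compartment over repeated experiments, without a number for each library. The control pia library carries a title that names brain parenchyma, whereas its source, its tissue and its description name pia, and it was used as pia.

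Microglia are the resident macrophages of the brain parenchyma, and in health they are told apart from other macrophages by a small set of genes that depend on signals of the brain such as TGF-beta. P2RY12 is a receptor for ADP that guides microglial processes towards injury, GPR34 is a receptor for lysophosphatidylserine, and SLC2A5 is a fructose transporter. TMEM119 is a membrane protein used to mark microglia, SIGLECH is a sialic acid binding lectin that plasmacytoid dendritic cells also carry, and CRYBB1 is a beta crystallin. SPARC and OLFML3 are secreted matrix proteins, and SALL1 is a transcription factor that maintains microglial identity. Loss of these transcripts is a known feature of microglia that react to injury. CNS-associated macrophages (CAM) of the meninges and perivascular spaces normally lack most of them and express Pf4, Lyve1, Mrc1 and Cd163 instead.

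All 9 are protein-coding genes with their own position in the GRCm38 mouse genome: Tmem119 on chr5:113793729-113800516 (minus strand), P2ry12 on chr3:59216272-59262871 (minus), Sparc on chr11:55394500-55423183 (minus), Sall1 on chr8:89027235-89044162 (minus), Olfml3 on chr3:103722222-103738001 (minus), Siglech on chr7:55768178-55778925 (plus), Gpr34 on chrX:13632089-13640858 (plus), Slc2a5 on chr4:150119283-150144169 (plus) and Crybb1 on chr5:112255815-112269585 (plus). RefSeq promoter windows on GRCm38.p6, 250 bases before each start site, were matched for 7 of the 9 genes. The stretches of 3 genes are shown because P2ry12 and Slc2a5 were lower in every library after stroke while Siglech was not. Letters in capitals mark GGAAGT or its reverse complement, the core of the sites bound by PU.1, the ETS factor of myeloid cells. The P2ry12 stretch is chr3:59262986-59263235 on the minus strand, the Siglech stretch is chr7:55767934-55768177 on the plus strand, and the Slc2a5 stretch is chr4:150119094-150119282 on the plus strand, with the Siglech and Slc2a5 stretches printed up to the annotated gene and the P2ry12 stretch ending before it.
P2ry12: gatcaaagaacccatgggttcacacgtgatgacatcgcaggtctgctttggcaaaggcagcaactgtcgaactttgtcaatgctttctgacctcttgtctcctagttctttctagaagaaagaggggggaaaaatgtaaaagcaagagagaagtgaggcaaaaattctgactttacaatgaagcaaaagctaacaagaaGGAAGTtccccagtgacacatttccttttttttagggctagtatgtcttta
Siglech: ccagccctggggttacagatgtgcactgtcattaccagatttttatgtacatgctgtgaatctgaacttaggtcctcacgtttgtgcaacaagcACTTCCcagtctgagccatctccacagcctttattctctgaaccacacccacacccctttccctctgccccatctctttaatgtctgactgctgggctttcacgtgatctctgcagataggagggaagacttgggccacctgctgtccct
Slc2a5: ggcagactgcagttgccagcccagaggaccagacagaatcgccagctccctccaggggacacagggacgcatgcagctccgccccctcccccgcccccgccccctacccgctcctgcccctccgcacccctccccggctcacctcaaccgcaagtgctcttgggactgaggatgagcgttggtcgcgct
The longer PU.1 word GAGGAAGT, read on both strands, was found in 2.44% of 32851 windows and in 0 of the 9 windows of the matched genes. Its core GGAAGT, which lies inside that word and was searched after that result, was found in 19.7% of all windows and in 3 of the 9 windows, those of P2ry12, Siglech and 1 of the 3 Sall1 starts. These are letter matches in short windows and not binding data.

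The libraries held 32457 cells that the authors had placed in 21 clusters, and 6591898 to 20754181 unique molecular identifiers (UMIs, counted RNA molecules) per library. The median clustered cell had 1071.5 UMIs in the shallowest library (the second 24 h brain replicate) and 2501 in the deepest (brain, 72 h). Pairs of libraries shared at most 32 cell barcodes. The brain libraries fell into 2 pairs in a way that the groups do not explain. Control and 24 h replicate 1 list 32285 genes, whereas 24 h replicate 2 and 72 h list 31053, and the 72 h library was made with kit version 3 and the other brain libraries with version 2. Mitochondrial genes made up 8291 and 7613 CPM (the UMIs of a gene divided by all UMIs of 1 cluster in 1 library and scaled to 1000000) of summed microglia in the first pair and 32439 and 28391 CPM in the second. All 4 libraries of pia and dura carry the longer list. Dura at 24 h was also made with version 3. Kit did not follow the pairs, since 24 h replicate 2 has the version of the first pair, but the gene list and any other difference between the pairs cannot be told apart, nor can kit and time at 72 h. The fits that hold pia or dura are therefore given for all libraries and for those with the longer list.

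By the summed CPM of the 9 genes, the microglia clusters stood above all others. Mean levels over libraries with at least 30 cells were 9368 ± 7006 CPM in Micro_1 (SD, n = 7), 6918 ± 4815 in Micro_3 (n = 6), 6701 ± 5346 in Micro_2 (n = 6) and 4815 ± 962 in stress_Micro (n = 2). CAM_2 followed with 3056 ± 5484 CPM and CAM_1 with 2782 ± 4830 CPM (n = 8 each), spreads larger than their means. By UMIs per cell stress_Micro came after both CAM clusters, with 4.09 UMIs of the 9 genes against 5.19 in CAM_1 and 4.23 in CAM_2. Neighbours in the order by CPM lay within the larger spread of each pair. Micro_2 and CAM_2, the neighbours of stress_Micro, lay outside its own smaller spread (n = 2). The clusters were built on these same counts, so the order is a description and was not tested. In dura the microglia clusters held 51 and 76 cells, whose 9 genes summed to 1885 CPM in control and 711 CPM at 24 h.

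**Figure D1:**
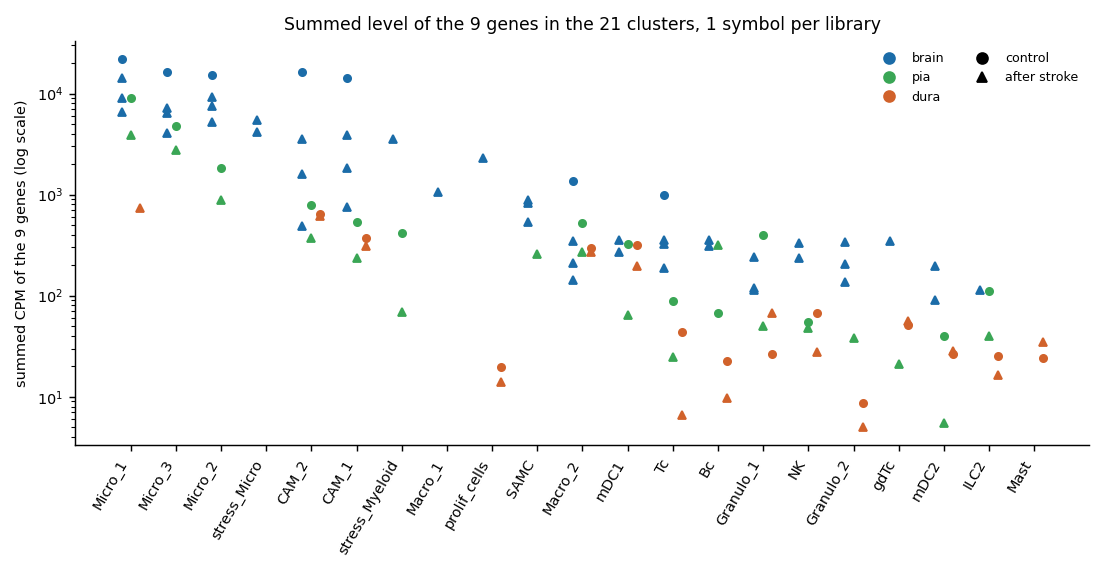
Summed CPM of the 9 genes (y axis, log scale) in each of the 21 clusters (x axis, ordered by the mean over libraries), with 1 symbol per library of at least 30 cells, coloured by tissue, circles for control and triangles after stroke. Brain control stands highest in Micro_1, Micro_2, Micro_3, CAM_1 and CAM_2, and in both CAM clusters it stands at 14343 and 16382 CPM against 236 to 794 CPM in pia and dura.

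P2ry12, Gpr34 and Slc2a5 were below control in every library after stroke and in each of Micro_1, Micro_2 and Micro_3. In all microglia summed, P2ry12 stood at 7265 CPM in control brain, 3183 and 389 CPM in the 24 h replicates and 560 CPM at 72 h. In pia it stood at 2632 CPM in control and 567 CPM at 24 h. The 24 h replicates thus kept 43.8% and 5.36% of the control level of this ADP receptor, the 72 h library 7.71%, and pia 21.6%. Gpr34 ran from 2011 CPM in control brain to 1011 and 404 CPM at 24 h and 608 CPM at 72 h, and from 864 to 209 CPM in pia. The lowest brain library was 24 h replicate 2 for both receptors, and neither was back at its control level at 72 h. Slc2a5 stood at 479 CPM in control brain, 257 and 141 CPM at 24 h and 117 CPM at 72 h, and at 186 and 55.3 CPM in control and stroke pia. Within the pair of brain libraries that share the longer list the ratios of 24 h to control were 0.438 for P2ry12, 0.503 for Gpr34 and 0.536 for Slc2a5.

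Tmem119 and Crybb1 separated the brain library pairs more than control and stroke. Tmem119 stood at 3902 CPM in control brain and 3392 CPM in 24 h replicate 1, but at 1093 CPM in replicate 2 and 857 CPM at 72 h. In pia this microglia marker stood at 1203 CPM in control and 1028 CPM at 24 h, so that where the gene lists match the stroke libraries kept 86.9% and 85.4% of control. Crybb1 gave 400 and 373 CPM in the first pair of brain libraries and 111 and 154 CPM in the second. Pia differed for this crystallin gene, with 371 CPM in control and 153 CPM at 24 h.

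Sparc and Siglech stood above control at 72 h, and Olfml3 just below it, whereas at 24 h they were below control except for Siglech in replicate 2. Sparc stood at 2416 CPM in control brain, 1265 and 1355 CPM in the 24 h replicates and 2742 CPM at 72 h. Its 24 h replicates lay close together although their gene lists differ, at 52.4% and 56.1% of control. Olfml3 stood at 1650 CPM in control, 989 and 731 CPM at 24 h and 1513 CPM at 72 h. Siglech stood at 583 CPM in control, 349 and 644 CPM at 24 h and 825 CPM at 72 h. In pia all of them were lower at 24 h than in control, Sparc with 432 against 1045 CPM, Olfml3 with 437 against 613 CPM and Siglech with 173 against 324 CPM. Sall1, the identity factor, went the other way between the library pairs, with 52.4 and 39.2 CPM in control brain and 24 h replicate 1 and 164 and 159 CPM in replicate 2 and at 72 h. Pia held 48.4 CPM of Sall1 in control and 8.92 CPM at 24 h.

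**Figure D2:**
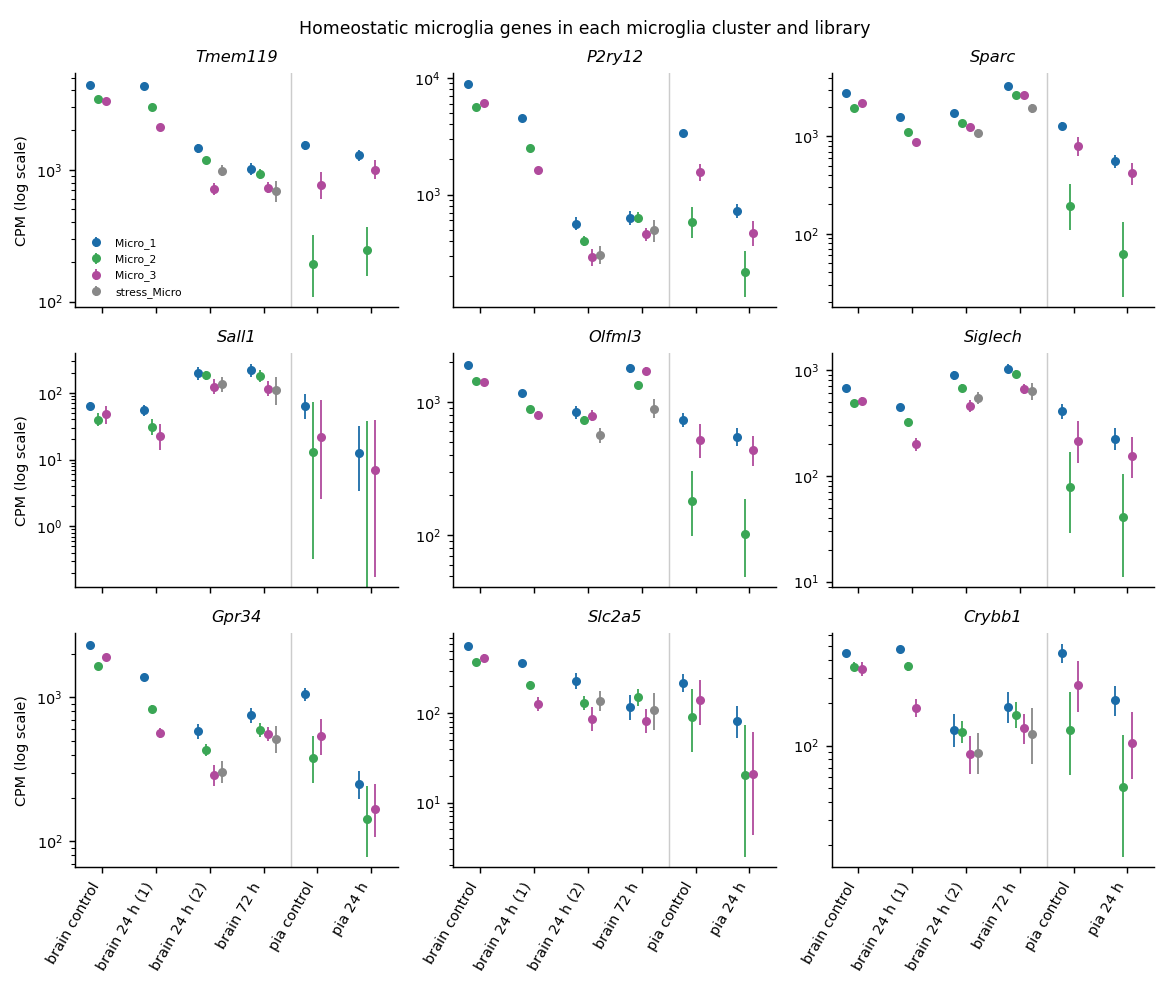
CPM (y axis, log scale) of each of the 9 genes in the brain and pia libraries (x axis), for Micro_1, Micro_2, Micro_3 and stress_Micro with at least 30 cells; bars are exact Poisson 95% intervals, which cover counting error only, and a value of 0 shows its bar alone. P2ry12, Gpr34 and Slc2a5 lie below control after stroke in Micro_1, Micro_2 and Micro_3 of both tissues, Sparc and Olfml3 of the whole brain microglia stand at 2742 and 1513 CPM at 72 h, and Sall1 stands higher in the brain libraries at 24 h (2) and 72 h.

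Of the 9 genes 6 (Tmem119, P2ry12, Olfml3, Gpr34, Slc2a5 and Crybb1) were below the control of their tissue in all 3 brain libraries and in pia after stroke, which 11.1% of all 9954 genes tested also were. In single pairs of libraries, 1 of the 9 (P2ry12) was at least 2-fold below control brain in 24 h replicate 1, where 3.0% of 11350 genes were. In replicate 2 there were 6 (14.8% of genes), 5 at 72 h (14.5%), and 6 in pia at 24 h (11.2% of 9954 genes). Such shares of single pairs have no replicate check.

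Across replicate libraries the differences in brain were not called. The edgeR quasi-likelihood test, where a gene was called if its p, adjusted after Benjamini and Hochberg, was under 0.05 and its fold 2 or more, called 0 of the 9 genes in summed brain microglia between 24 h and control, and 0 (0.0%) of 11350 genes in all. At an unadjusted edgeR p under 0.05 there were 157 genes (1.38%), none of the 9 among them. Of all genes tested, 0 met that p with a lower level at 24 h, so the absence of the 9 is not particular to them. DESeq2 called 10 genes. The log2 fold of 24 h over control was -2.19 ± 1.39 (SE) for P2ry12, -1.75 ± 1.37 for Gpr34, -1.54 ± 1.37 for Slc2a5, -1.24 ± 1.38 for Olfml3, -1.23 ± 1.39 for Sparc, -1.02 ± 1.40 for Tmem119, -0.94 ± 1.38 for Crybb1, -0.64 ± 1.38 for Siglech and 0.47 ± 1.46 for Sall1, with an edgeR adjusted p of 1 for each. The median was -1.23 over the 9 genes and 0.04 over all genes tested. The fit had 1 residual degree of freedom, from the replicates at 24 h, and the 1 control library is assumed to vary as these do. These replicates belong to different library pairs, so the SE and p-values also hold the difference between the pairs. That is true of every fit within brain. With so few libraries a missing call does not show that a gene did not differ. Between 72 h and 24 h, 0 of the 9 genes and 1 gene in all (0.00881%) were called, and the log2 folds ran from -1.85 ± 1.59 for P2ry12 to 1.06 ± 1.40 for Sparc. With 24 h replicate 1 left out, 72 h over 24 h turned to 0.77 for P2ry12, 0.83 for Gpr34 and 0.71 for Crybb1, values that then rest on 1 library a side.

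With brain and pia in one fit and tissue as a covariate, all 9 genes had a log2 fold of stroke over control below 0 (Sall1 turned to 0.78 in brain alone and to 0.0055 with thinned cells), as 46.5% of all genes had, with a median of -0.95 against 0.06 over all genes, and still none was called, as was none (0.0%) of the 9954 genes. P2ry12 (log2 fold -2.44 ± 0.91 SE), Gpr34 (-1.91 ± 0.58) and Slc2a5 (-1.73 ± 0.53) had unadjusted edgeR p-values of 0.0284, 0.0114 and 0.0115 and an adjusted p of 0.9 each. There were 238 genes at an unadjusted p under 0.05, and DESeq2 called 18 genes, none of the 9. The stroke group of this fit joined the 24 h and 72 h libraries. The call turned on the libraries. Without 24 h replicate 1, P2ry12 (adjusted p = 0.0168 by edgeR) and Slc2a5 (adjusted p = 0.0494) were called lower among 213 genes. Calls over all genes thus rose from 0 to 213 with that library left out, so the rise was not limited to the 9.

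In the 4 brain and pia libraries with the longer list, a setting chosen after the split of the libraries was seen, 4 of the 9 genes fell after stroke, beside 57 (0.608%) of 9372 genes that were called lower and 114 (1.22%) called higher. P2ry12 fell by 1.77 ± 0.22 (SE) on the log2 scale, Gpr34 by 1.55 ± 0.22, Slc2a5 by 1.25 ± 0.19 and Sparc by 1.18 ± 0.16, with edgeR adjusted p-values of 0.00143, 0.00305, 0.00519 and 0.00231. Siglech (log2 fold -0.90 ± 0.15, adjusted p = 0.00766 by edgeR) and Olfml3 (-0.72 ± 0.16, 0.0274) passed the p threshold with folds under 2. The values were -0.31 ± 0.15 for Tmem119, -0.66 ± 0.24 for Crybb1 and -0.87 ± 0.32 for Sall1, with edgeR adjusted p-values of 0.326, 0.189 and 0.169. Each condition is 1 brain and 1 pia library in this fit, so neither tissue has a replicate within a condition. The 1 residual degree of freedom is the difference in the stroke effect between brain and pia. The SE and p-values of this fit do not measure a spread between replicate libraries of a tissue.

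**Figure D3:**
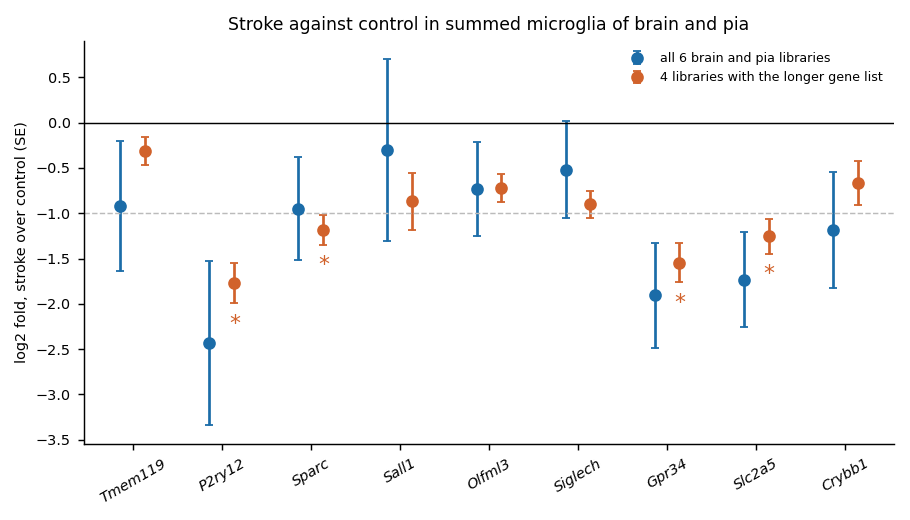
Log2 fold of stroke over control (y axis; points with SE bars from edgeR) for the 9 genes (x axis) in summed microglia, fitted over all 6 brain and pia libraries (blue) and over the 4 with the longer gene list (orange); stars mark calls and the dashed line a 2-fold lower level. P2ry12, Sparc, Gpr34 and Slc2a5 are called in the 4 libraries only, and the SE of P2ry12 is 0.91 with all 6 and 0.22 with the 4.

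The microglia clusters gave like orders for P2ry12, from different starting levels. P2ry12 went from 8784 CPM in control brain to 4515, 562 and 633 CPM (24 h replicate 1, 24 h replicate 2 and 72 h) in Micro_1, from 5643 to 2518, 400 and 634 CPM in Micro_2, and from 6042 to 1621, 290 and 458 CPM in Micro_3. Micro_3 kept the smallest part of it at 24 h in both replicates. Beside P2ry12, Gpr34 and Slc2a5, the genes below control in all brain and pia libraries after stroke differed by cluster. They were Tmem119 and Olfml3 in Micro_1, Olfml3 in Micro_2 and Crybb1 in Micro_3. Tmem119 in 24 h replicate 1 stood at 4354 against 4405 CPM in control in Micro_1, at 3008 against 3434 CPM in Micro_2 and at 2098 against 3314 CPM in Micro_3. Of the 9 genes 6 were at least 2-fold below control in Micro_3 of that replicate (6.94% of 8284 genes), 1 in Micro_2 (3.41% of 9577) and 0 in Micro_1 (1.8% of 9486). Whether the clusters differ in this was not tested. The stress_Micro cluster held 30 cells or more only in 24 h replicate 2 (479 cells) and at 72 h (213), with 303 and 493 CPM of P2ry12, 982 and 688 CPM of Tmem119 and 1078 and 1950 CPM of Sparc, so it has no control to be set against.

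Within the longer-list libraries, 3 of the 9 genes (P2ry12, Sparc and Gpr34) were called lower after stroke in Micro_1, beside 0.542% of 7929 genes called lower and 0.782% called higher (1.32% in all), and 4 (the same with Slc2a5) in Micro_2, beside 0.329% of 7293. In Micro_3 the count was 0 of 9, beside 0.0879% of 5687 genes, called in either direction, with P2ry12 at -1.96 ± 0.26 (SE) and an edgeR adjusted p of 0.0501. The longer-list fits of these clusters also hold no replicate of either tissue within a condition. Over all brain and pia libraries 0 of the 9 genes, and 0.0% of all genes, were called in any of these clusters. At an unadjusted edgeR p under 0.05, 4 of the 9 were lower in Micro_3, beside 1.41% of all genes. There were 3 in Micro_1 (0.582%) and 3 in Micro_2 (0.278%). The calls turned on the libraries. Without 24 h replicate 1, P2ry12 was called lower in each of these clusters, Gpr34 and Slc2a5 in Micro_2 and Micro_3, and Crybb1 in Micro_3. Sall1 was then called higher in Micro_2. Shares of all genes called in those fits are not given here. Within brain 0 of the 9 were called in these clusters between 24 h and control (0.0% of genes in each). The same held between 72 h and 24 h (0.0% in Micro_1 and Micro_2, 0.0121% in Micro_3). In pia, Micro_2 held 45 cells in control and 61 at 24 h, of which 41.5% and 37.5% of the cells thinned to 1000 UMIs had a UMI of any of the 9 genes. Border macrophage genes summed to 5628 and 4088 CPM there, against 61.2 to 479 CPM in Micro_2 of brain. The part that these other transcripts play in the pia values of Micro_2 was not tested.

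Transcripts of other cells and of stress moved in part with these values. Over brain control, 24 h replicates 1 and 2, and 72 h, the 10 border macrophage genes summed to 69.0, 110, 524 and 307 CPM in microglia, with 5, 2, 1 and 2 of them at 0, and in pia to 1194 CPM in control and 1119 CPM at 24 h, with none at 0. The 4 granulocyte genes (S100a8, S100a9, Retnlg and Hp) summed to 8.03, 23.6, 129 and 74.5 CPM in brain and to 9.31 and 107 CPM in pia, and the 5 lymphoid genes stayed at 14.3 CPM or less in brain and pia. Immediate early and heat shock genes, which tissue dissociation can raise, summed to 47368, 48925, 37271 and 31834 CPM in brain and to 41178 and 39985 CPM in pia. The part of these transcripts in the results was not tested.

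Shares of cells were compared at an even depth. Cells were thinned to 1000 UMIs each and shallower cells left out, which removed 162 of 3733 microglia in control brain and 1307 of 1998 in 24 h replicate 2. A P2ry12 UMI was then seen in 99.2% of control brain microglia, in 86.1% and 31.7% at 24 h and in 45.1% at 72 h. For Sparc the shares were 88.4%, 68.3%, 68.0% and 87.7%. Nearly all microglia had a UMI of at least 1 of the 9 genes, 100%, 98.4%, 95.5% and 97.8% in the same order. The study named these clusters by markers that include Tmem119, Sparc and P2ry12. A cell without them could fall in another cluster, so this share cannot show that microglia kept the genes after stroke.

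The make-up of the signal shifted as well. P2ry12 gave 38.7% of the UMIs of the 9 genes in control microglia, 29.3% and 7.73% at 24 h and 7.43% at 72 h. Sparc gave 12.9% in control, 11.6% and 26.9% at 24 h and 36.4% at 72 h, when it was the largest part. Pia microglia went from 36.1% to 18.5% for P2ry12 and from 16.5% to 33.5% for Tmem119. The part of gene length and of the kit in these proportions was not tested.

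A list of 30 other microglia genes was set beside the 9. Over all 6 brain and pia libraries 0 of 30 were called between stroke and control (0.0% of all genes) and 23 had a log2 fold below 0 (46.5% of all genes), with a median of -0.66. In the longer-list libraries 3 of the 30 were called lower, beside 0.608% of all genes, and 27 were below 0 (median -0.53), beside 50.3%: Cst3, which codes for cystatin C, by 1.21 ± 0.20 (SE), Serpine2, a protease inhibitor, by 1.05 ± 0.17, and Upk1b, a tetraspanin, by 1.85 ± 0.24. Their edgeR adjusted p-values were 0.00697, 0.00749 and 0.0016. Cd81 and Selplg were at -0.64 ± 0.16 and -0.60 ± 0.16 and Csf1r (the M-CSF receptor) and Lgmn (legumain) at -0.47 ± 0.16 and -0.32 ± 0.16, none of them called. The transcription factors Mef2a, Mef2c and Smad3 were at -0.24 ± 0.15, -0.39 ± 0.15 and -0.30 ± 0.30, also without a call. Like Sall1, Mef2a differed between the library pairs, with 282 CPM in control brain and 249 CPM in 24 h replicate 1 and 1429 and 849 CPM in replicate 2 and at 72 h.

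In the CAM clusters the 9 genes went with the brain. Before that is read, the cluster names have to be set against their markers. The 10 border macrophage genes looked at (Pf4, Lyve1, Mrc1, Cd163, Cbr2, F13a1, Ms4a7, Folr2, Stab1 and Clec12a) summed to 6789 to 9416 CPM in CAM_1 of pia and dura, but to 123 and 113 CPM in CAM_1 of control brain and 24 h replicate 1, where 4 and 3 of them were at 0. In brain 24 h replicate 2 and at 72 h they summed to 1348 and 1845 CPM. CAM_2 was alike, with 6928 to 10012 CPM in pia and dura and 163, 123, 1183 and 1632 CPM in brain. Lyve1 had no UMI in either CAM cluster of control brain and 24 h replicate 1. Immediate early and heat shock genes summed to 51785, 23159, 18287 and 11180 CPM in CAM_1 of the brain libraries and to 18581 and 13514 CPM in pia, and their part in the results was not tested. The brain cells are therefore called by their cluster names only, CAM_1 and CAM_2, without reading them as border macrophages. The border macrophage sums also differed between the brain libraries. Levels of the 9 genes across these libraries are therefore not read as a change within 1 cell type. The part of cluster make-up in them was not tested.

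CAM_1 of control brain carried the microglia genes almost at the level of microglia and CAM_1 of pia and dura did not. Tmem119 stood at 3085 CPM in control brain, 1344 and 291 CPM at 24 h and 194 CPM at 72 h, and at 25.9 to 51.3 CPM in the 4 libraries of pia and dura. P2ry12 stood at 5033, 573, 129 and 60.6 CPM in the same brain libraries and at 41.3 to 128 CPM in pia and dura. The first of these genes did not overlap between tissues, whereas for P2ry12 the 72 h library lay inside the range of pia and dura. Sparc stood at 2044, 665, 541 and 165 CPM in brain and at 11.5 to 28.5 CPM in pia and dura. As a share of the microglia of the same library, the 9 genes together reached 76.5% in control brain, 35.5% and 36.7% at 24 h and 9.9% at 72 h, against 7.39% and 7.71% in pia.

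CAM_2 gave the same order with a lower end at 72 h. Tmem119 stood at 3268 CPM in control brain, 1100 and 230 CPM at 24 h and 181 CPM at 72 h, and at 53.6 to 117 CPM in pia and dura. P2ry12 stood at 6038, 553, 70.6 and 32.8 CPM in brain, and pia and dura ranged from 85.8 to 224 CPM. At 72 h P2ry12, Siglech, Gpr34 and Crybb1 were lower in CAM_2 of brain than in every library of pia and dura, and Slc2a5 lay within their range. Relative to microglia of the same library the 9 genes summed to 87.3% in control, 32.5% and 32.0% at 24 h and 6.53% at 72 h.

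Tested over 4 brain against 4 other libraries with stroke as a covariate, 6 of the 9 genes were called higher in CAM_1 of brain, beside 3.02% of 7519 genes that were called higher. Of these 6, Sall1 and Slc2a5 passed the filter on low counts through brain only, with 0 of 4 pia and dura libraries at its minimum of 15.7 CPM, so they could only come out higher and their calls add no support. Sparc was higher by 5.17 ± 0.58 (SE) on the log2 scale, Tmem119 by 4.71 ± 0.86, Olfml3 by 3.60 ± 0.59 and Siglech by 2.46 ± 0.41, with edgeR adjusted p-values of 0.00108, 0.0091, 0.00554 and 0.00589. The levels of Slc2a5 and Sall1 are given by counts, since pia and dura hold next to none. Slc2a5 had 238 UMIs in CAM_1 of brain and 6 in pia and dura, a 68.1-fold ratio of pooled CPM (exact 95% counting interval 30.8 to 187). Without control brain, which holds 128 of these UMIs, the ratio was 36.9 (16.4 to 103). Sall1 had 60 UMIs against 0, which makes it at least 34.3-fold higher, taking 3 counts over the pooled pia and dura cells as the floor. P2ry12 (3.28 ± 0.89, adjusted p = 0.0509), Gpr34 (1.42 ± 0.62, 0.186) and Crybb1 (1.42 ± 0.57, 0.157) were not called by edgeR. Leaving out single libraries gave 5 to 8 calls among the 9 except for control brain, without which 3 stayed called, Sparc and the brain-only Sall1 and Slc2a5. In the longer-list libraries all 9 were called (11.0% of 7749 genes called higher). Sall1 and Slc2a5 are counted in these numbers wherever they were called, and they add no support there either. Of brain, the longer-list fit holds only control and 24 h replicate 1, and none of its tissues has a replicate within a condition. In it 41.2% of all genes had an unadjusted edgeR p under 0.05.

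CAM_2 gave 3 calls of 9, beside 1.65% of 5347 genes called higher, but Sparc and Slc2a5 passed the filter through brain only (0 of 4 pia and dura libraries at its minimum of 32.4 CPM), which leaves Olfml3 as the call that the filter did not favour. Olfml3 was higher in brain by 2.44 ± 0.58 (SE) on the log2 scale, with an edgeR adjusted p of 0.0472. Sparc, which could only come out higher, had a fitted log2 fold of 4.91 ± 0.90 (SE). Slc2a5 had 113 UMIs in brain and 1 in pia and dura, a ratio of 41.5 (counting interval 7.29 to 1652), which became 16 (2.72 to 647) without control brain. The values were 3.38 ± 0.82 for Tmem119 and 2.22 ± 0.60 for Siglech, with edgeR adjusted p-values of 0.053 and 0.065. These calls were fragile, as leaving out single libraries gave from 0 to 9 calls. They were 0 without control brain, without brain 24 h replicate 2, without either pia library and without control dura, 1 without dura at 24 h, and 9 without brain at 72 h. Those 9 include Sparc, Slc2a5 and Sall1, for all of which 0 of 4 pia and dura libraries reached the minimum of 32.4 CPM.

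As a description, with the genes that passed through brain only included, the median log2 fold of the 9 genes was 3.60 in CAM_1 and 2.50 in CAM_2, with Sall1 of CAM_1 at its bound or as fitted, against 0.14 and 0.09 over all genes. All 4 brain libraries stood above all 4 of pia and dura for 6 of the 9 genes in CAM_1, as they did for 15.6% of all genes, and for 4 of the 9 in CAM_2, as for 10.6%. For Sall1 of CAM_2 the lowest brain library stood at 3.69 CPM against 3.15 CPM in the highest of pia and dura. Of the other microglia genes 12 of 29 tested were called higher in CAM_1 of brain, among them Selplg (3.76 ± 0.73 SE), and 0 lower, while 6 of 10 border macrophage genes were called lower. In CAM_2 the counts were 5 of 26 higher and 4 of 10 border genes lower. Scaling by library size in place of TMM moved the genes called in CAM_1 from 227 higher and 309 lower to 415 and 194, and in CAM_2 from 88 and 115 to 146 and 98, with all 9 genes still above 0 and P2ry12 of CAM_1 and Tmem119 of CAM_2 then called (adjusted p = 0.0312 and 0.0444 by edgeR). Within brain, 0 of the 9 were called in either cluster between 24 h and control (0.0% of 7359 and of 6333 genes) or between 72 h and 24 h (0.0544% in CAM_1, and 0.0316% in CAM_2 with 0.0158% each way), though all 9 had a fitted log2 fold of 72 h over 24 h below 0 in both clusters, as 55.6% of all genes had in CAM_1 and 52.2% in CAM_2. The unadjusted p under 0.05 with a lower level at 24 h than in control was met by 3 of the 9 in CAM_1, beside 0.34% of all genes, and by 4 in CAM_2, beside 0.568%. Between 72 h and 24 h it was met with a lower level at 72 h by 6 in CAM_2, beside 2.02%. In CAM_1 it was met by 0, beside 0.856%, and 72 h is 1 library in both clusters.

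**Figure D4:**
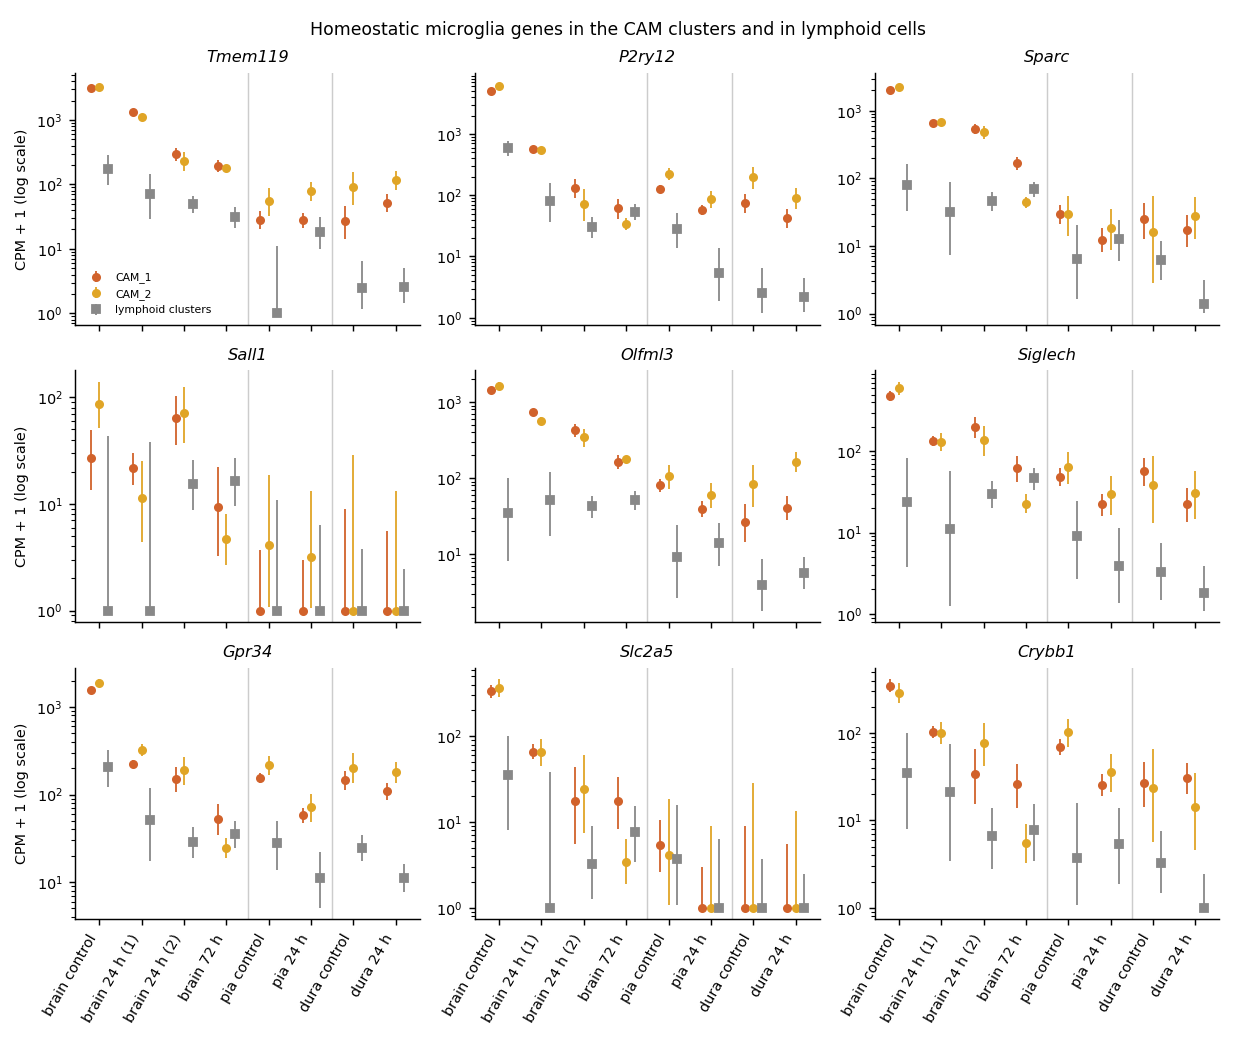
CPM plus 1 (y axis, log scale) of the 9 genes in CAM_1, CAM_2 and the summed lymphoid clusters of each library (x axis), with exact Poisson 95% counting intervals. The CAM clusters of brain run down from control to 72 h for most of the genes, Sall1 excepted, and for Sparc, Tmem119, Olfml3 and Sall1 all 4 brain libraries lie above pia and dura in both clusters. For Sall1 of CAM_2 the margin is 3.69 against 3.15 CPM. Sparc and Sall1 of CAM_2 passed the filter on low counts through brain only, and at 72 h both lie below the lymphoid clusters.

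Lymphoid cells were taken as the background in the same libraries, compared in CPM. Whether they express any of the 9 genes themselves was not tested. In the B, T, NK, gamma-delta T and ILC2 clusters of brain together, the 9 genes summed to 1166 CPM in control, 314 and 243 CPM at 24 h and 310 CPM at 72 h. The CAM clusters exceeded this in all 4 brain libraries, by the widest margin in control (14343 CPM in CAM_1 and 16382 in CAM_2) and the narrowest at 72 h (746 and 492 CPM). Single genes crossed it at 72 h. In CAM_1 Sall1 stood at 8.36 CPM against 15.6 in lymphoid cells. In CAM_2 P2ry12 stood at 32.8 CPM against 52.3 in lymphoid cells, Sparc at 43.1 against 67.9, Sall1 at 3.69 against 15.6 and Siglech at 21.8 against 45.7. At that time point Tmem119 (181 against 30.1 CPM) and Olfml3 (179 against 50.1 CPM) of CAM_2 stayed above it. A CAM_2 cell held more UMIs than a lymphoid cell at 72 h, which lowers its CPM for a like count. By UMIs per cell P2ry12, Sparc and Siglech stood higher in CAM_2 than in lymphoid cells there, and Sall1 lower.

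At 1000 UMIs per cell, 100% of CAM_1 cells in control brain had a UMI of any of the 9 genes, then 82.1% and 63.6% at 24 h and 35.5% at 72 h (exact 95% interval 28.3 to 43.1%). The CAM_2 shares were 100%, 73.3%, 45.7% and 36.2% (32.5 to 40.1% at 72 h). Lymphoid cells gave 50.9%, 21.8%, 22.1% and 22.5% (18.6 to 26.7% at 72 h). At 72 h the intervals of both CAM clusters lay above this one, but they cover counting error over the cells of a single library. Whether the clusters differ there was not tested. Cells too shallow for the thinning numbered 7, 17, 88 and 40 in CAM_1, 72, 71, 43 and 10 in CAM_2, and 15, 17, 62 and 247 among lymphoid cells. Without thinning the shares at 72 h were 60.4% in CAM_1, 71.7% in CAM_2 and 31.9% in lymphoid cells. In CAM_1 of pia the shares were 36.8% in control and 17.8% at 24 h, so the brain share at 72 h was no higher than that of control pia.

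**Figure D5:**
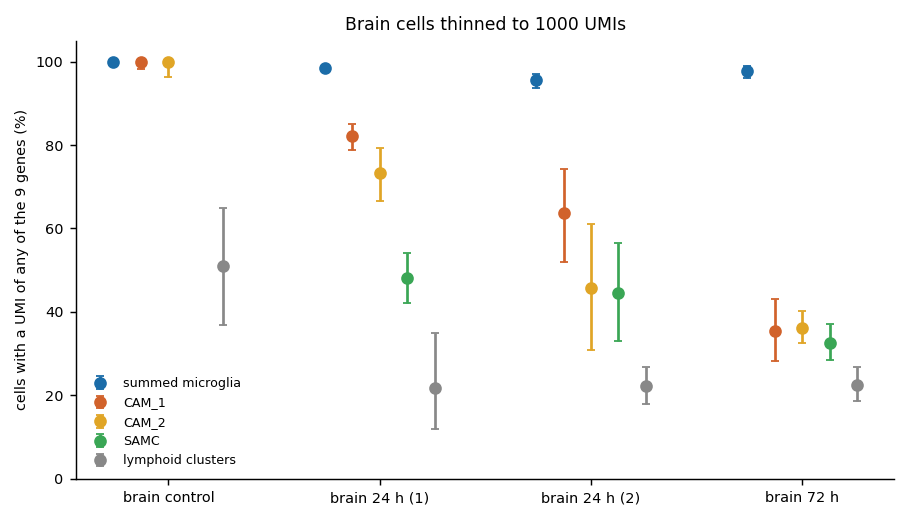
Share of brain cells with at least 1 UMI of any of the 9 genes after thinning to 1000 UMIs per cell (y axis, percent; bars are exact 95% binomial intervals) by library (x axis), for summed microglia, CAM_1, CAM_2, stroke-associated myeloid cells (SAMC) and lymphoid clusters. Microglia, whose clusters were named by markers among the 9, lie at 95.5% or more, both CAM clusters run from 100% to 35.5% and 36.2%, and lymphoid cells lie between 21.8% and 50.9%.

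The 9 genes did not stand in one ratio across cell types of a library. In 24 h replicate 1, P2ry12 made up 29.3% of their UMIs in microglia and 25.8% in lymphoid cells, but 14.9% in CAM_1 and 15.7% in CAM_2, while Olfml3 made up 9.11%, 16.1%, 18.9% and 16.1%. In control brain P2ry12 gave 38.7% in microglia, 35.1% in CAM_1 and 36.9% in CAM_2, and 51 of 102 UMIs in lymphoid cells. Tmem119 and Olfml3 together made up most of the CAM_2 signal at 72 h, with 36.7% and 36.4%, against 11.4% and 20.1% in microglia of that library. The part of free RNA and of mixed droplets in the CAM values was not tested, and the study's doublet treatment was kept as deposited.

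Of the other clusters, stress_Myeloid came next in order, with 30 cells or more in brain 24 h replicate 2 and both pia libraries, where the 9 genes summed to 3534, 416 (control pia) and 68.3 CPM (pia at 24 h). It held 108 CPM of Sall1 in that brain library, from 5 UMIs in 45 cells, and none in pia. Its 11 to 25 cells in the other brain libraries were too few for a level. SAMC, a cluster the study names after its appearance in stroke tissue, held 30 cells or more in the stroke libraries of brain and in pia at 24 h, where the 9 genes summed to 824 and 887 CPM at 24 h and 533 CPM at 72 h in brain and to 256 CPM in pia. Sparc (238, 242 and 92.9 CPM), Olfml3 (227, 259 and 212 CPM) and Tmem119 (173, 82.1 and 138 CPM) gave most of it. The thinned share with any of the 9 genes was 48.1%, 44.6% and 32.6%, above that of lymphoid cells in the same brain libraries, a difference that was not tested. Siglech was also found in mDC1 dendritic cells, at 201 and 227 CPM in brain 24 h replicate 2 and 72 h and at 279 and 170 CPM in control and stroke dura, while the other 8 genes of that cluster stayed at 37.7 CPM or less in these libraries. Pia differed, with Siglech in mDC1 at 15.7 CPM in control and 40.5 CPM at 24 h. In control pia that was below P2ry12 (110 CPM), Tmem119 (70.4 CPM) and Gpr34 (62.6 CPM).

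Over 112 sums of a cluster in a library, genes whose log2(CPM + 1) closely followed the mean of the 9 were Tspan7 (Pearson r = 0.92), P2ry13 (0.912), Ecscr (0.888), Slc1a3 (0.887), Cx3cr1 (0.88), Mertk (0.878) and Mlxipl (0.861), of 6458 genes compared. These sums share libraries and depth, so the values only describe likeness. Among the 9 genes themselves r with their mean ran from 0.855 for Sall1 to 0.949 for Sparc, which is part of that mean.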

How the data were processed

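The authors deposited UMI counts per gene and cell (10x Chromium, Cell Ranger 6.0 and mm10 per the labels) and a table that places cells in 21 clusters, with 2 UMAP scores per cell, also deposited by the authors after SCTransform and Harmony, that were not used. Counts of the 30406 genes shared by all 8 libraries, matched by identifier, were summed per library and cluster. CPM used these sums, and levels and fits took sums of at least 30 cells. Intervals are exact Poisson (CPM) or Clopper-Pearson (shares) at 95% and cover counting error only.

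Tests used the edgeR 4.0.16 quasi-likelihood fit across all genes (R 4.3.3, TMM, filterByExpr, robust), with libraries as replicates. DESeq2 1.42.0, library size scaling, no filter, thinned cells and left-out libraries were alternatives. The fits of stroke against control took 24 h and 72 h as a single stroke group. The CAM fits of brain against pia and dura did the same and took pia and dura as a single group. P-values measure the spread between libraries, which may be technical and in these fits also holds differences of time and tissue. In the longer-list fits no tissue has a replicate within a condition. For stroke against control the spread there is the difference between brain and pia. For brain against pia and dura it holds the difference between pia and dura. The fits were tested on simulated data. There edgeR recovered few or none of the changed genes in the fits within brain and in those of brain and pia. A missing call in these fits therefore does not show that a gene did not differ. Most DESeq2 calls for simulated brain microglia at 24 h against control were false.

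Named by rule were the 9 genes, the 6 of 30 other microglia genes highest in brain microglia, 3 transcription factors, and the 8 genes most like the 9. Results that need certain items are not reported here. Upk1b, Serpine2 and the border genes were named after their values were seen. The members and lists were chosen with earlier results of these data known. Gene positions are from GENCODE M21.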

Additional observations from a re-analysis of the deposited data

Results flagged for a closer look

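The log2 ratio of Tmem119 to control had opposite signs in brain and pia in 3 clusters at 24 h. In Micro_2 it was 0.33 in pia and -0.19 and -1.55 in the brain replicates. Pia Micro_2 held only 45 and 61 cells, which also carried the border macrophage transcripts described above. In Micro_3 the ratio was 0.40 in pia and -0.66 and -2.22 in brain. In CAM_2 the ratio was 0.52 in pia and -1.57 and -3.83 in brain. The levels behind that pia ratio were low, since Tmem119 stood at 53.6 to 117 CPM in CAM_2 of pia and dura. Each pia value rests on 1 pair of libraries and is given without a counting interval. The difference between tissues was not tested.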

How the results depend on the processing

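Scaling by library size moved the median log2 fold of all genes by 0.36 in brain microglia at 24 h, 0.19 in the fit of brain and pia, 0.37 in CAM_1 and 0.17 in CAM_2, and the signs of the 9 genes in CAM_1 and CAM_2 held. No paired analysis was possible because only brain at 24 h has more than 1 library, so that groups share fewer than 2 replicate numbers. Chosen after the data were seen were the restriction to the longer gene list and the left-out libraries of the fits of 72 h against 24 h and of the brain CAM clusters. In brain microglia, 24 h against control gave 10 genes by DESeq2, and 72 h against 24 h gave 0 without the filter or with thinned cells. The fit of stroke against control in brain and pia gave 18 genes by DESeq2, 21 without the filter and 171 in longer-list libraries, and 0 to 213 when single libraries were left out, with 0 to 2 of the 9 genes (4 in longer-list libraries). Sall1 reversed in that fit, to 0.0055 with thinned cells and 0.78 in brain only, and ran from -2.51 to 0.86 over left-out libraries. It ran from -0.51 to 1.07 in brain microglia at 24 h. Over left-out libraries, 72 h against 24 h ran from -2.67 to 0.77 for P2ry12, from -0.90 to 0.83 for Gpr34 and from -1.45 to 0.71 for Crybb1, with the cause not tested.

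Brain CAM_1 gave 10 genes by DESeq2 at 24 h against control, and at 72 h against 24 h 11 by DESeq2, 0 without the filter and 2 thinned, against 4. Brain CAM_2 gave 2 by DESeq2 at 24 h, and at 72 h 7 by DESeq2, 12 by library size, 0 without the filter and 0 thinned, against 2. CAM_1 of brain against pia and dura gave 926 genes by DESeq2, 1151 without the filter, 43 against pia only and 1899 in longer-list libraries, against 536, and 176 to 980 over left-out libraries (185 without control brain, 909 without 24 h replicate 1, 980 without 72 h, 277 and 188 without control and stroke pia, 259 and 176 without control and stroke dura). Of the 9 genes 2 were called against pia only, and 3 to 8 over left-out libraries. CAM_2 gave 436 genes by DESeq2, 593 without the filter, 97 thinned, 16 against pia only and 930 in longer-list libraries, against 203, and 47 to 835 over left-out libraries (52 without control brain, 835 and 90 without 24 h replicates 1 and 2, 407 without 72 h, 57 and 59 without control and stroke pia, 80 and 47 without control and stroke dura). Its calls among the 9 were 6 by DESeq2, 6 without the filter, 0 against pia only, 8 in longer-list libraries and 0 to 9 over left-out libraries. The counts of calls for CAM_1 and CAM_2 include, where called, the genes that passed the main filter through brain only, which add no support.

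By summed level CAM_1 ranked 7 with a minimum of 10 cells and 4 by UMIs per cell, against 6, and CAM_2 ranked 6 with 10 cells, against 5. Shares with any of the 9 genes moved with depth. Without thinning, CAM_1 gave 92.7% in 24 h replicate 1 and 60.4% at 72 h, CAM_2 gave 86.1%, 69.7% and 71.7% in the 3 stroke libraries, and lymphoid cells 37.3% in replicate 2 and 31.9% at 72 h. Thinned to 500 UMIs, CAM_1 gave 71.6%, 51.2% and 26.4%, CAM_2 gave 19.3% at 72 h, and lymphoid cells 13.3% in replicate 2 and 15.7% at 72 h. The shallow cells of brain 24 h replicate 2 limit its shares.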

Other observations

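Barcodes that the authors had placed in no cluster also held the 9 genes. Their summed level in such barcodes was 15794 CPM in control brain, 6362 and 1275 CPM in the 24 h replicates and 972 CPM at 72 h. In pia it was 800.3 CPM in control and 361 CPM at 24 h, and in dura 493 and 166 CPM. These barcodes numbered 266 to 1347 per library and entered no comparison.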
